A study of Ovis aries with 24 samples.

Results

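RCAN1 and CREM, 2 feedback genes of calcium and cyclic AMP signalling, were followed across both vessels and all 3 stages of a sheep study of the ductus arteriosus. The probes were those whose gene name or description on the array names RCAN1 (also called DSCR1) or CREM, and there were 5 of them among 15008 probes, for 2 of the 757 genes that carry a symbol here. A single probe, A_70_P039651, stands for RCAN1 (gene 443255). CREM (gene 100125358) has 4 probes, of which A_70_P012576 and A_70_P012577 were designed on its RefSeq mRNA and A_70_P024296 and A_70_P024297 on an expressed sequence tag. Both genes were chosen by their measured levels in all 6 groups, so every level and difference of their own is a description, without a test.

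The ductus arteriosus is the fetal vessel between the pulmonary artery and the aorta that closes after birth. The groups were the ductus and the aorta of preterm fetuses, of near-term fetuses and of newborn lambs 12 hours after birth, with 4 arrays each. Preterm and near-term fetuses were of 97 and 136 gestational days by the source labels, and of 100 and 140 by the sample titles. No treatment or genotype is given for any group, and the aorta is labelled ascending aorta while the protocol speaks of segments next to the ductus. Nothing in the labels ties a ductus sample to an aorta sample of the same animal.

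Calcineurin is the calcium- and calmodulin-dependent phosphatase that dephosphorylates NFAT transcription factors and so lets them enter the nucleus. RCAN1 binds and restrains calcineurin, and one of its promoters is itself an NFAT target, which closes a feedback loop. CREM belongs with CREB to the transcription factors that protein kinase A phosphorylates when cyclic AMP is high, and an internal promoter of CREM gives the short repressor ICER, which dampens cyclic AMP responses. In the fetal ductus prostaglandin E2 acts through EP4 and EP2 receptors to raise cyclic AMP and keep the muscle relaxed, while calcium entry drives its contraction at birth.

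Signal of these single-colour Agilent arrays is given on the log2 scale, with 0 set at the 75th percentile of the spots on each array. Between 66.2% and 94.4% of the probes were well above background on an array, by the flag of the scanner software. On 12 of the 24 arrays the spike-in detection limit was above 1.5, on 2 of 4 preterm ductus, 3 of 4 preterm aorta, 2 of 4 near-term ductus, 3 of 4 near-term aorta, 0 of 4 newborn ductus and 2 of 4 newborn aorta arrays. The 8 arrays of a stage shared 1 slide and the vessels lay on different sides of it, so stage and slide, and vessel and side, cannot be told apart. Of 9 smooth muscle markers listed, CNN1 and MYLK had probes that were measured, both were well above background on every ductus array, and their summed signal was 84.9 to 145 times the 75th percentile in newborn ductus and 65.8 to 153 times in newborn aorta. In whole vessel RNA a change in the number of cells of a type and a change in RNA per cell cannot be told apart.

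RCAN1 had its highest mean in the newborn ductus, about 3 times the level of the newborn aorta. In preterm ductus it read 2.50, 2.19 and 2.29 on the 3 arrays kept (the spot of replicate 2 was marked non-uniform and left out, and would read 2.41). In preterm aorta it read 2.79, 3.05, 1.60 and 1.84, which spans the whole preterm ductus range. In near-term ductus the values were 2.66, 2.76, 2.19 and 2.68. In near-term aorta they were 2.84, 2.66, 3.69 and 3.90, so 2 of these 4 arrays came close to or within the newborn ductus range. In newborn ductus RCAN1 read 4.08, 4.31, 3.72 and 4.01. In newborn aorta it read 1.61, 2.77, 2.88 and 2.49, all below every newborn ductus array.

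**Figure D1:**
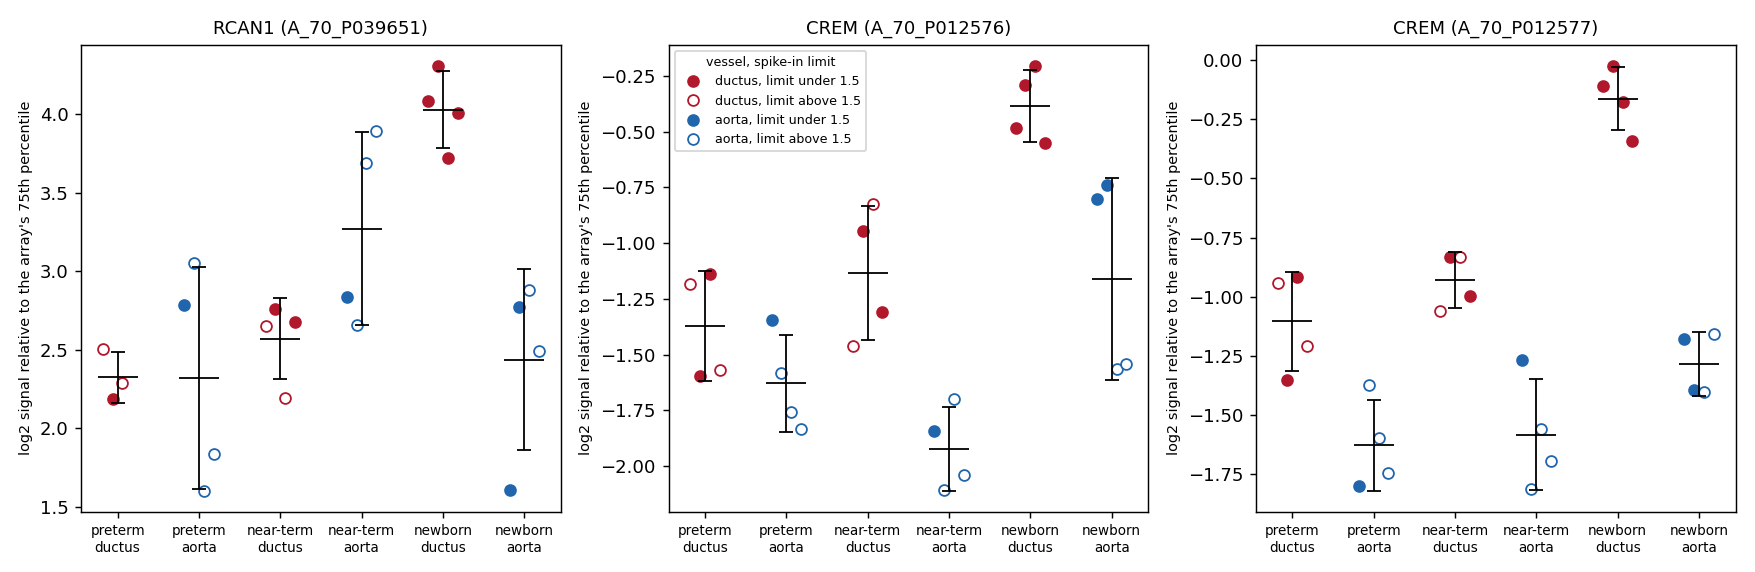
Signal of the RCAN1 probe and of both CREM probes designed on its mRNA, as log2 relative to the array's 75th percentile on the vertical axis, for 6 groups on the horizontal axis. Each circle is 1 array, filled where the spike-in limit was under 1.5 and open where it was above, and the black bar and whiskers give mean and SD. Newborn ductus stands highest for each probe, and the newborn aorta arrays of A_70_P012576 split by limit into a pair at −0.80 and −0.74 and a pair at −1.57 and −1.54.

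By its means RCAN1 ran 4.03 ± 0.24 in newborn ductus, 3.27 ± 0.61 in near-term aorta, 2.57 ± 0.26 in near-term ductus, 2.44 ± 0.58 in newborn aorta, 2.33 ± 0.16 in preterm ductus and 2.32 ± 0.71 in preterm aorta (SD, n = 4 and n = 3 for preterm ductus). Every group in this order overlapped its next neighbour in some arrays, and the newborn ductus stood clear of all groups but near-term aorta. RCAN1 was well above background on all 23 spots kept.

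RCAN1 was 3.01-fold higher in newborn ductus than in newborn aorta, a log2 difference of 1.59 ± 0.34 (SE of the fit). All 4 newborn ductus arrays lay above all 4 newborn aorta arrays, as did those of 6.27% of the 13997 tested probes. In newborn ductus it was 2.75-fold higher than in near-term ductus, by 1.46 ± 0.34 with no overlap, which 7% of the tested probes also showed in that direction. The median log2 difference over all tested probes was −0.30 and −0.32 in these comparisons. Both comparisons belong to the levels that chose the gene, so nothing is read from these shares. With arrays of a spike-in limit above 1.5 left out, the log2 differences were 1.84 in newborn ductus against newborn aorta and 1.31 in newborn against near-term ductus.

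The aorta went the other way by its means. RCAN1 was lower in newborn than in near-term aorta by 0.83 ± 0.34 on the log2 scale (1.78-fold), and higher in near-term than in preterm aorta by 0.95 ± 0.34 (1.93-fold), with overlapping arrays in both cases. Of the 3 near-term aorta arrays with a limit above 1.5, 2 read high (3.69 and 3.90) and 1 read 2.66, below the 2.84 of the array under the limit. On the arrays under the limit, 1 in each group, near-term and preterm aorta differed by 0.05. Near-term ductus was below near-term aorta by 0.70 ± 0.34, again with overlap, and by 0.12 on the arrays under that limit. Between near-term and preterm ductus the log2 difference was 0.24 ± 0.37, and between preterm ductus and preterm aorta 0.01 ± 0.37. The change between near-term and newborn differed between ductus and aorta by 2.29 ± 0.48, and by 1.96 on the arrays under the limit.

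**Figure D2:**
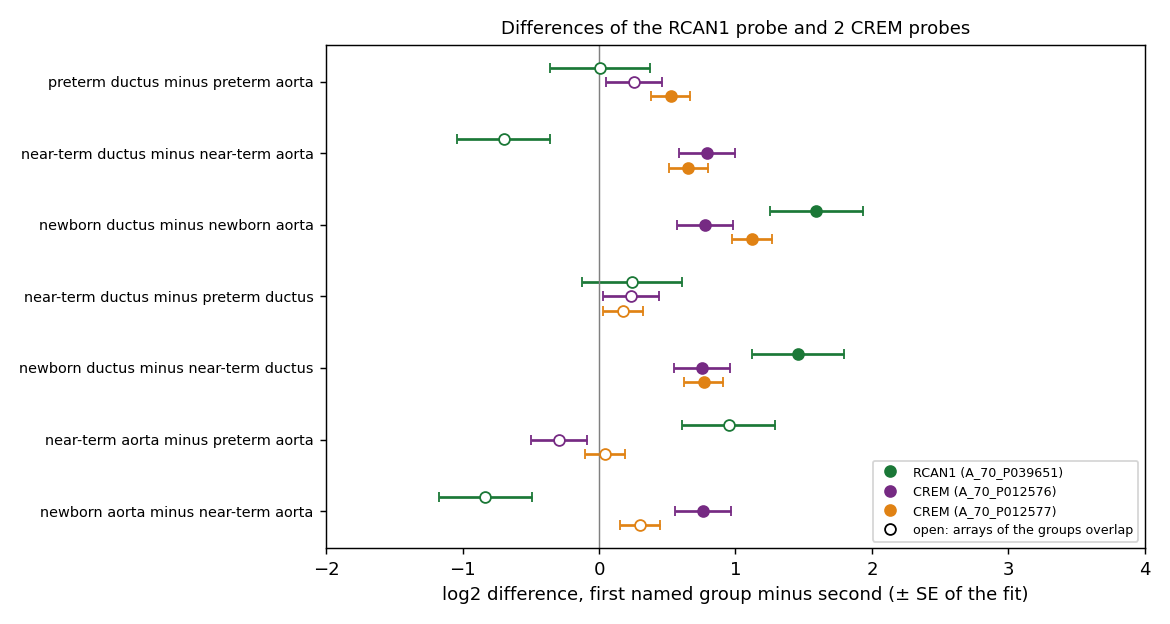
Log2 difference, first named group minus second, with the SE of the fit, for the RCAN1 probe and both CREM mRNA probes in 7 comparisons down the page. Filled points mark comparisons in which the arrays of the groups did not overlap. RCAN1 is to the right of 0 by 1.59 and 1.46 in the newborn ductus comparisons and to the left in near-term ductus against near-term aorta and in newborn against near-term aorta.

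CREM, read on its 2 mRNA probes, was also highest in newborn ductus. Both probes were well above background on 24 of 24 arrays. On A_70_P012577 CREM was higher in ductus than in aorta before birth too.

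On A_70_P012577 the 4 preterm ductus arrays read −0.94, −1.35, −0.92 and −1.21, and the preterm aorta arrays −1.80, −1.37, −1.60 and −1.74. Near-term ductus read −1.06, −0.83, −0.83 and −0.997, against −1.27, −1.81, −1.56 and −1.69 in near-term aorta. Newborn ductus read −0.11, −0.03, −0.18 and −0.34, against −1.18, −1.39, −1.40 and −1.16 in newborn aorta. At each stage every ductus array lay above every aorta array, though at the preterm stage the lowest ductus value (−1.35) and the highest aorta value (−1.37) nearly met. Among all tested probes, arrays were all higher in ductus for 3.06% at the preterm, 3.49% at the near-term and 6.27% at the newborn stage. As these groups chose the gene, nothing is read from it.

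The log2 differences of A_70_P012577 were 0.52 ± 0.14 in preterm, 0.65 ± 0.14 in near-term and 1.12 ± 0.14 in newborn ductus against aorta, or 1.44-, 1.57- and 2.17-fold. Newborn ductus was above near-term ductus by 0.77 ± 0.14 (1.70-fold) without overlap, which 7% of the tested probes also showed. Newborn aorta differed from near-term aorta by 0.30 ± 0.14 with overlapping arrays, and by −0.02 on the arrays with a spike-in limit under 1.5. Near-term ductus differed from preterm ductus by 0.17 ± 0.14, and near-term aorta from preterm aorta by 0.04 ± 0.14. By its means the probe ran −0.16 ± 0.13 in newborn ductus, −0.93 ± 0.12 in near-term ductus, −1.10 ± 0.21 in preterm ductus, −1.28 ± 0.13 in newborn aorta, −1.58 ± 0.23 in near-term aorta and −1.63 ± 0.19 in preterm aorta (SD, n = 4). In this order only newborn ductus stood clear of its neighbour, and the other neighbours overlapped in their arrays.

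On A_70_P012576 preterm ductus read −1.18, −1.60, −1.14 and −1.57, and preterm aorta −1.34, −1.58, −1.76 and −1.83. Near-term ductus read −1.46, −0.94, −0.83 and −1.31, against −1.84, −2.11, −1.70 and −2.04 in near-term aorta. Newborn ductus read −0.48, −0.29, −0.20 and −0.55, against −0.80, −0.74, −1.57 and −1.54 in newborn aorta. Preterm ductus and preterm aorta overlapped on this probe. Near-term and newborn ductus lay above their aortas on all arrays, as did 3.49% and 6.27% of all tested probes, and nothing is read from it. The newborn aorta fell into a higher and a lower pair of arrays, and the lower pair were those with a spike-in limit above 1.5.

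The log2 differences of A_70_P012576 were 0.26 ± 0.20 in preterm, 0.79 ± 0.20 in near-term and 0.78 ± 0.20 in newborn ductus against aorta. The newborn difference was 0.39 on the arrays with a limit under 1.5, where the 4 ductus arrays were still above both aorta arrays. Newborn was above near-term by 0.75 ± 0.20 in ductus and by 0.76 ± 0.20 in aorta, with no overlap in either vessel. Of the tested probes 7% in ductus and 5.75% in aorta were higher in newborns without overlap. Its change around birth therefore differed between ductus and aorta by −0.01 ± 0.29, where the other mRNA probe gave 0.47 ± 0.20. By its means the probe ran −0.38 ± 0.16 in newborn ductus, −1.13 ± 0.30 in near-term ductus, −1.16 ± 0.45 in newborn aorta, −1.37 ± 0.25 in preterm ductus, −1.63 ± 0.22 in preterm aorta and −1.92 ± 0.19 in near-term aorta (SD, n = 4). Newborn ductus again stood clear of its neighbour, and the other neighbours overlapped.

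The mRNA probes of CREM thus shared the highest group and the newborn ductus step. In the main fit they parted in the aorta around birth (0.76 on A_70_P012576 and 0.30 on A_70_P012577). With normexp background correction they were close there, at 0.11 on A_70_P012576. Across 24 arrays they correlated with r = 0.86, and within groups, after each group's mean was taken off, with r = 0.40. RCAN1 correlated with them at 0.37 and 0.51 across 23 arrays and at −0.02 and −0.04 within groups. These values describe arrays that share slides and scaling.

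The 2 CREM probes designed on the expressed sequence tag read close to background and showed no newborn ductus step. A_70_P024296 was well above background on 4 arrays and A_70_P024297 on 6, all of them among the 12 with a spike-in limit above 1.5 and 0 among the 12 under it. In newborn ductus both were well above background on 0 of 4 arrays, at −7.97 to −7.16 and −7.82 to −7.52. In newborn aorta they ranged between −7.73 and −2.83 and between −7.60 and −3.77, with the highest value on replicate 4 for both, the array with the highest limit of that group.

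**Figure D3:**
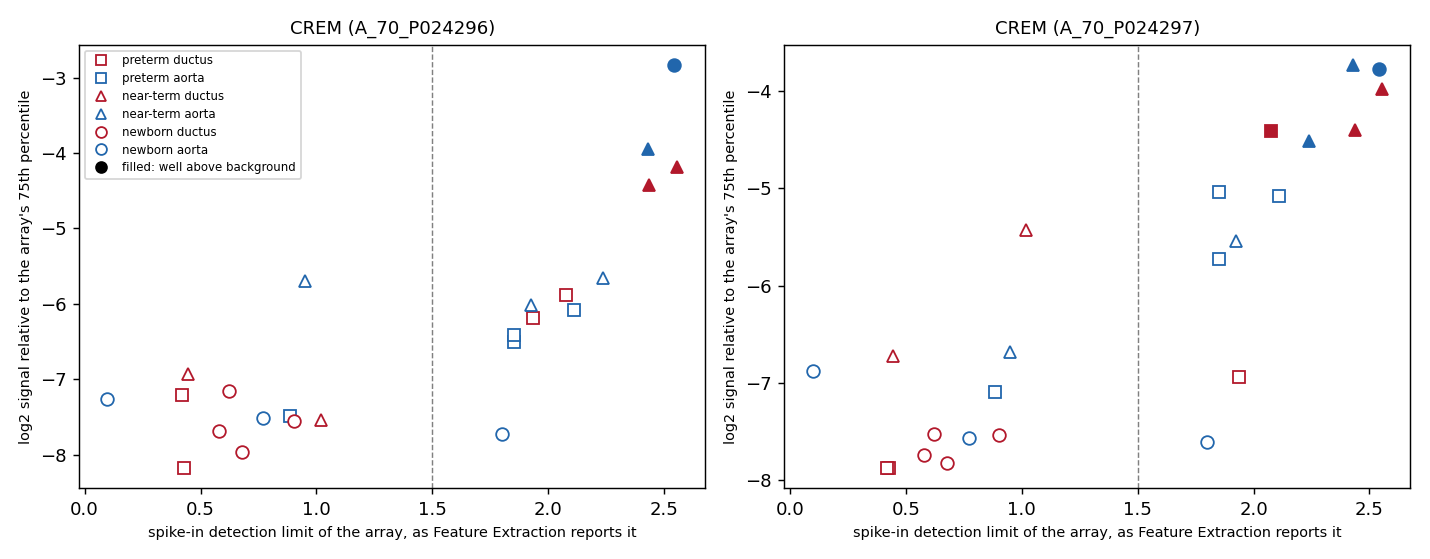
Signal of the 2 CREM probes designed on an expressed sequence tag (vertical axis, log2 relative to the 75th percentile) against the spike-in detection limit of each of 24 arrays (horizontal axis), with vessel by colour and stage by shape. Filled symbols, 4 on the left and 6 on the right, are well above background, and all lie right of the dashed line at 1.5.

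Across arrays these 2 probes correlated at r = 0.86, and at 0.84 within groups. On A_70_P024297 the newborn ductus was below near-term ductus on all arrays, with 0 and 2 arrays above background, where 15.5% of the tested probes were lower without overlap. On A_70_P024296 near-term aorta was above preterm aorta on all arrays, with 1 and 0 arrays above background, where 3.96% of the tested probes were higher without overlap. In newborn ductus against newborn aorta the aorta had the higher mean on both probes, mostly through replicate 4 (−2.83 and −3.77). The remaining newborn aorta arrays read −7.73 to −7.27 and −7.60 to −6.88. These overlapped newborn ductus, at −7.97 to −7.16 and −7.82 to −7.52. No fold is given for these probes, since the brighter groups also held arrays not well above background. All arrays on which these probes were well above background had a spike-in limit above 1.5. Newborn aorta replicate 3, also above 1.5, read −7.73 and −7.60, the lowest of its group. The part of the limit in their levels was not tested.

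Genes around RCAN1 and CREM were counted from lists of their pathways, chosen with earlier results of these data known. Neither their direction nor the share that passed is therefore independent evidence. Of 192 genes listed, 34 had a named probe that was tested, since most probes of this array carry no gene name. In newborn ductus against newborn aorta 7 of these 34 passed limma's test at an adjusted p below 0.05 (Benjamini-Hochberg over 13997 probes), 6 higher and 1 lower, or 20.6%, where 10.3% of all tested probes passed. In newborn against near-term ductus 5 passed, all higher (14.7%, against 11% of all probes). With normexp background correction 19 passed there, 6 higher and 13 lower, where 39.1% of all probes passed. IL6, counted as passing in both newborn ductus comparisons, met the filter on dim probes only through newborn ductus. In newborn against near-term aorta 4 passed, 3 higher and 1 lower (11.8%, against 6.37%), and 0 with only the groups compared in the fit, where 0% of all probes passed. In ductus against aorta 0 passed at the preterm stage and 0 at the near-term stage, where 0.7% and 1.15% of all probes passed, and limma gave 2 and 2 genes at an unadjusted p below 0.05. Between near-term and preterm 0 passed in ductus and 0 in aorta, where 0.3% and 0.486% of all probes passed, with 4 and 2 genes at an unadjusted limma p below 0.05.

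The calcium side of the pathway was thinly covered. Of 29 calcineurin and calmodulin genes 2 were tested, and of 27 genes of calcium entry and stores 0. CALM2, one of the genes for calmodulin, averaged 2.82 ± 0.22 in newborn ductus and 2.04 ± 0.28 (n = 3) in newborn aorta, a log2 difference of 0.78 ± 0.28 that missed the threshold (limma adjusted p = 0.0836). CALM2 fell in newborn against near-term aorta by 0.99 ± 0.28 on the log2 scale (limma adjusted p = 0.0421), a call lost in 6 of 11 alternatives and without near-term aorta replicate 1, 2 or 3 or newborn aorta replicate 1, 2 or 3 (adjusted p 0.0577 to 0.15). PPIA, the cyclophilin through which ciclosporin blocks calcineurin, averaged 6.57 ± 0.11 in newborn ductus and 6.48 ± 0.09 in newborn aorta (difference 0.08 ± 0.19, limma adjusted p = 0.775).

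Of 24 genes of the NFAT family and of known NFAT targets 10 were tested, and 2 rose in newborn ductus against both newborn aorta and near-term ductus, where 10.3% and 11% of all tested probes passed. PTGS2, the inducible cyclooxygenase that makes prostaglandin precursors, averaged 1.92 ± 0.33 in newborn ductus, −2.41 ± 0.55 in newborn aorta and −1.72 ± 0.35 in near-term ductus. It was 20.2-fold higher in newborn ductus than in newborn aorta (limma adjusted p = 2.86e-08) and 12.5-fold higher than in near-term ductus (2.13e-07). This holds for the brighter of its 2 probes, since the other, well above background on 9 arrays, differed by −1.96 in newborn ductus against aorta (limma adjusted p = 0.232), and with the mean of both probes the difference was 1.19 (0.138) in newborn ductus against aorta and 0.78 (0.269) in newborn against near-term ductus. CXCL8, a chemokine that draws neutrophils, averaged 0.68 ± 0.32 in newborn ductus, −0.67 ± 0.86 in newborn aorta and −3.77 ± 0.40 in near-term ductus. CXCL8 rose 21.8-fold in newborn against near-term ductus (limma adjusted p = 6.21e-08) and 7.99-fold in newborn against near-term aorta (8.23e-05), and was 2.56-fold higher in newborn ductus than in newborn aorta (0.0109), on both of its probes. The call against newborn aorta was lost with quantile normalisation (limma adjusted p = 0.127), without arrays past the spike-in limit (0.13), and with only the groups compared in the fit (0.113), and the aorta call with only the groups compared (0.125).

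The other NFAT targets were mostly T-cell cytokines near background. TNF was an exception, above background on 20 arrays and on 4 of 4 in each newborn group. TNF averaged −3.23 ± 0.39 in newborn and −4.49 ± 1.34 in near-term ductus. In aorta it averaged −2.72 ± 1.22 in newborns and −4.16 ± 0.81 near term, and it did not pass in these comparisons. IL2, IL4, IL5, IL13, IFNG, CD40LG and the factor NFAT5 were well above background on 0 newborn ductus arrays and on 0 arrays with a spike-in limit under 1.5. The list's median log2 difference was −1.90 in newborn ductus against newborn aorta, beside −0.30 over all tested probes, and −1.88 beside −0.32 in newborn against near-term ductus. In all, 17 of the 34 tested pathway genes were above background on 0 of 4 newborn ductus arrays, and 15 of these also on 0 of the 12 arrays under the limit. The arrays on which these 15 were above background all had a limit above 1.5, as for the expressed-sequence-tag probes of CREM. The part of the limit in the list medians was not tested.

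On the cyclic AMP side 8 of 32 receptors, ligands and G-protein genes were tested and 0 passed in any of the 9 comparisons, where 0% to 11% of all tested probes passed. PTGER4, the EP4 receptor, was well above background on 0 of 4 newborn ductus arrays, 2 of 4 newborn aorta arrays and 3 of 4 near-term ductus arrays. PTGER4 averaged −6.54 ± 0.49 in newborn ductus, −4.36 ± 2.34 in newborn aorta and −4.16 ± 2.21 in near-term ductus. Its differences from newborn aorta (limma adjusted p = 0.204) and from near-term ductus (0.147) did not pass. No fold is given, since the brighter groups also held arrays not well above background. Of its 14 arrays above background 12 had a limit above 1.5. PTHLH, the parathyroid hormone-related protein, averaged −4.54 ± 0.35 in newborn ductus and −5.90 ± 1.02 in newborn aorta (limma adjusted p = 0.12), with 4 and 2 arrays above background. The list's median log2 difference was −1.67 in newborn ductus against newborn aorta, beside −0.30 over all tested probes, and PTHLH was the 1 of its 8 genes above background on any newborn ductus array.

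PRKACA, a catalytic subunit of protein kinase A, was the 1 gene of 35 tested for cyclic AMP synthesis, breakdown and kinase. PRKACA averaged −1.77 ± 0.36 in newborn ductus and −0.55 ± 1.04 in newborn aorta, a log2 difference of −1.22 ± 0.54 that did not pass (limma adjusted p = 0.147). CREB1, the founding cyclic AMP response factor, was the 1 of 16 tested in its family list and averaged −2.74 ± 0.20 in newborn ductus and −2.34 ± 1.01 in newborn aorta (limma adjusted p = 0.534).

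Of 30 known CREB targets 12 were tested, and 5 passed in newborn ductus against newborn aorta, 4 higher and 1 lower, where 10.3% of all tested probes passed. IL6 is among those higher, and met the filter on dim probes only through newborn ductus. The list's median log2 difference was −0.06, beside −0.30 over all tested probes. JUNB, an AP-1 subunit and immediate early gene, averaged 2.41 ± 0.32 in newborn ductus, −0.02 ± 0.37 in newborn aorta and −1.26 ± 0.85 in near-term ductus. JUNB was 5.38-fold higher in newborn ductus than in newborn aorta (limma adjusted p = 8.50e-04), 12.7-fold higher than in near-term ductus (1.04e-05), and 3.31-fold higher in newborn than in near-term aorta (0.0162), on both probes. The aorta call was lost without near-term aorta replicate 1 (limma adjusted p = 0.0525) and with only the groups compared (0.177).

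FOS, its AP-1 partner, averaged −0.46 ± 1.10 in newborn ductus and −3.12 ± 0.74 in newborn aorta, 6.31-fold higher (limma adjusted p = 0.0132), on both probes. Without newborn ductus replicate 3 its adjusted p was 0.0521, on the arrays under the limit 0.0811 and with only the groups compared 0.0582. EGR1, an immediate early zinc finger factor, averaged 1.72 ± 0.23 in newborn ductus and 0.16 ± 0.69 in newborn aorta, 2.96-fold higher (limma adjusted p = 0.00622). Of its 4 probes 2 passed, the other 2 gave 0.0682 and 0.0931, and with only the groups compared its adjusted p was 0.0568. CEBPB, a bZIP factor of inflammatory responses, rose 3.74-fold in newborn against near-term ductus, at −0.23 ± 0.27 and −2.13 ± 0.47 (limma adjusted p = 7.35e-04), and missed the threshold against newborn aorta (0.0626).

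IL6, an inflammatory cytokine, was well above background on 4 of 4 newborn ductus arrays, 0 of 4 newborn aorta arrays and 1 of 4 near-term ductus arrays. It averaged −0.10 ± 0.74 in newborn ductus and −6.65 ± 0.68 in newborn aorta, at least 41.7-fold higher (limma adjusted p = 2.33e-07). IL6 was also higher than in near-term ductus (limma adjusted p = 1.08e-06), and no fold is given since 3 of those 4 arrays were not well above background. As IL6 met the filter on dim probes only through newborn ductus, both p-values are a description.

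INHA, the inhibin alpha subunit, was the 1 called CREB target with a lower level in newborn ductus than in newborn aorta. It averaged −1.96 ± 0.37 in newborn ductus and −1.17 ± 0.45 in newborn aorta, a log2 difference of −0.79 ± 0.24 (limma adjusted p = 0.0378), on 1 of its 2 probes. That call was lost in 8 of 12 alternatives and without newborn ductus replicate 1, 3 or 4 or newborn aorta replicate 3 or 4 (adjusted p 0.0762 to 0.128). In newborn against near-term ductus INHA differed by −0.06 ± 0.24 (limma adjusted p = 0.874). It was 2.95-fold higher in newborn than in near-term aorta (limma adjusted p = 9.91e-04), though not with normexp (0.148) or with only the groups compared (0.127).

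**Figure D4:**
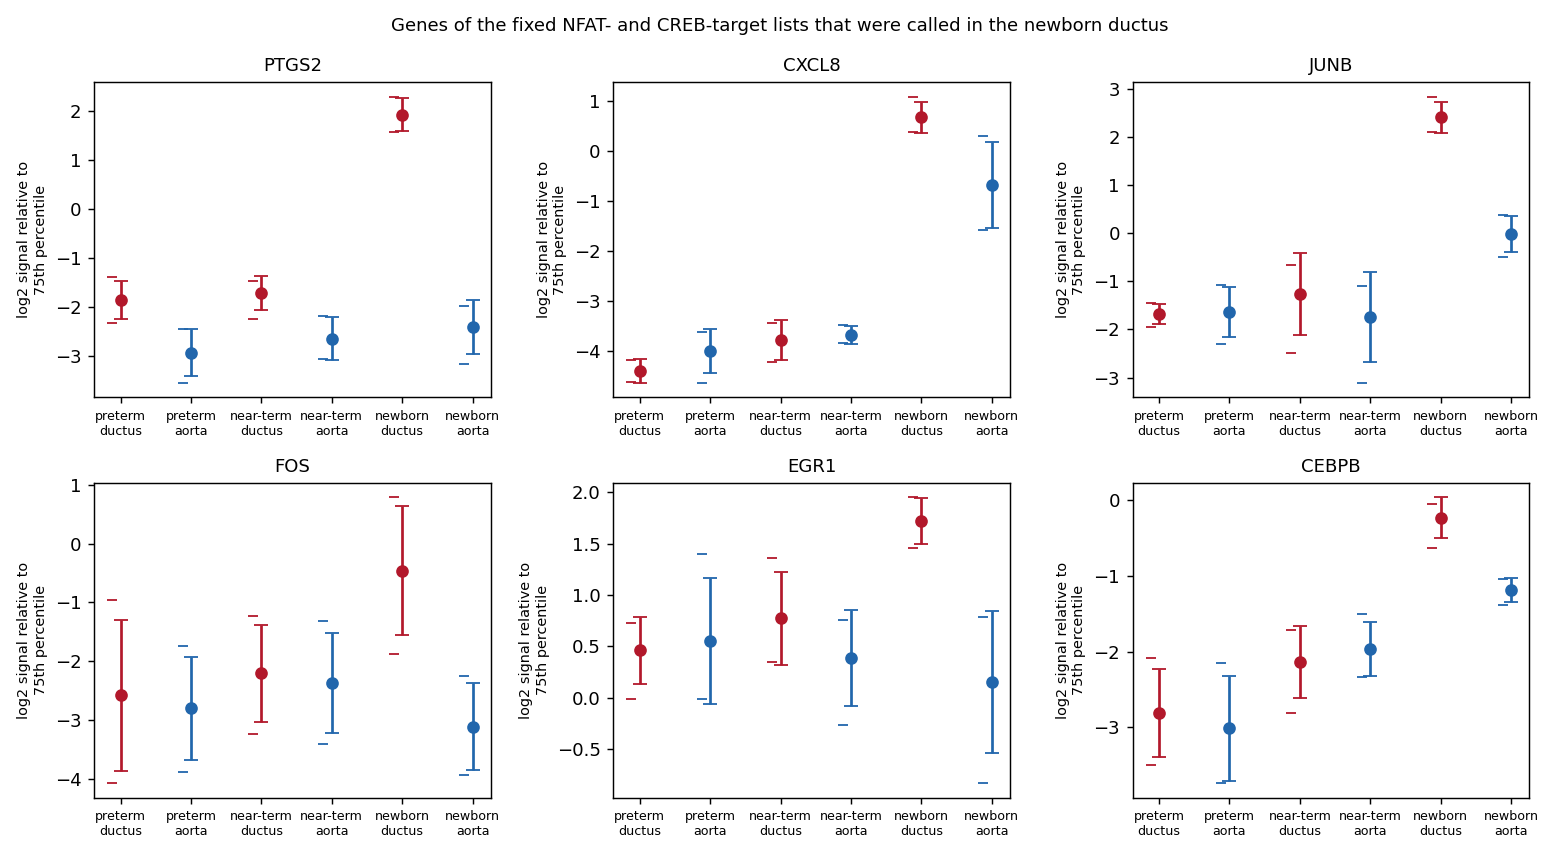
Group means and SD (points with whiskers, n = 4 each) of 6 genes from the NFAT- and CREB-target lists, with short side ticks at the lowest and highest array, as log2 signal relative to the array's 75th percentile, for ductus in red and aorta in blue. The 6 were drawn from the genes called higher in newborn ductus than in newborn aorta or near-term ductus. Newborn ductus as the highest group for each, at 1.92 for PTGS2 and 2.41 for JUNB, reflects that choice. IL6, also called higher, and INHA, called lower than in newborn aorta, are not drawn.

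The change around birth differed between ductus and aorta for 3 of the 34 pathway genes, 2 upward and 1 downward, or 8.82%, where 0.407% of all tested probes passed. As the lists were chosen with earlier results known, nothing is read from this share. PTGS2 differed by 3.40 ± 0.43 on the log2 scale (limma adjusted p = 3.06e-04). IL6 passed as well (limma adjusted p = 4.11e-04), with 3 of the 4 groups at or near background, so that no fold is given. It met the filter on dim probes only through newborn ductus, so this p is a description. INHA differed by −1.62 ± 0.33 (limma adjusted p = 0.0313), and this call was lost in 6 of 12 alternatives and in 11 of 16 fits with 1 array left out. The call of PTGS2 was lost with quantile normalisation (limma adjusted p = 0.121) and with the mean of its probes (0.852), and that of IL6 with normexp (0.187). JUNB (0.249), FOS (0.439), CXCL8 (0.288), CEBPB (0.505) and EGR1 (0.506) did not pass that limma test at their adjusted p.

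Genes whose pattern was most like each probe were found among 441 named genes well above background on at least 20 arrays, by Pearson's r over all arrays. For RCAN1, over 23 arrays, these were SLC2A3, a glucose transporter (r = 0.76), MCL1, an anti-apoptotic BCL2 relative (0.72), CHI3L1, a secreted chitinase-like protein (0.72), SOD2, the mitochondrial superoxide dismutase (0.69), and C3, the central complement component (0.69). SLC2A3 averaged 5.70 in newborn ductus, 1.45 in newborn aorta and 3.06 in near-term ductus. SOD2 averaged 3.21, 0.72 and −0.04 in the same groups.

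For CREM on A_70_P012577 the most alike were MCL1 (r = 0.89), PTGS2 (0.88), ANXA2, a membrane-binding annexin (0.84), TIMP1, a metalloproteinase inhibitor (0.83), and SARS1, the seryl-tRNA synthetase (0.82). For A_70_P012576 they were TNFRSF11B, the decoy receptor osteoprotegerin (0.89), TIMP1 (0.85), SLC16A1, a lactate transporter (0.81), MCL1 (0.79) and IGFBP3, an IGF-binding protein (0.79). MCL1 stands in all 3 lists, and averaged 1.71 in newborn ductus, −0.45 in newborn aorta and −0.19 in near-term ductus.

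The likeness lay mostly between groups. Within groups r was 0.48 for SLC2A3 and 0.27 for MCL1 with RCAN1, and 0.74 for TNFRSF11B and 0.69 for SLC16A1 with A_70_P012576. With A_70_P012577 it was 0.32 for MCL1 and −0.18 for PTGS2. Other measures named partly other genes. With the spike-in limit class taken off, all but C3 stayed among the most alike for RCAN1. All but SARS1 stayed for A_70_P012577, and all but IGFBP3 for A_70_P012576. PTGS2, ANXA2 and MCL1 also stayed for A_70_P012577 by the group means. By the 6 group means SOD2 was the 1 of the 5 RCAN1 genes that stayed among the most alike, behind IRF1 (r = 0.96), SLC2A1 (0.92) and FAS (0.92), and within groups 0 of the 5 stayed for RCAN1 and for A_70_P012577. All arrays share slides and scaling, and r is given as a description.

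**Figure D5:**
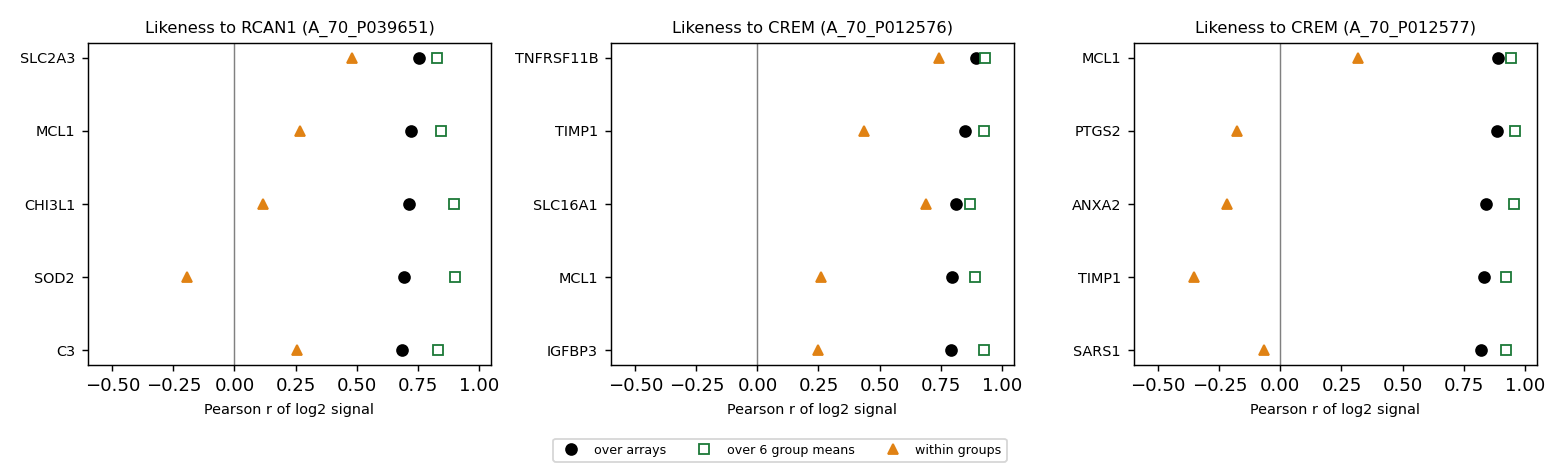
Pearson's r of the log2 signal between each probe and the 5 genes most like it, over arrays (black circles), over the 6 group means (green squares) and within groups (orange triangles). Values over arrays lie between 0.69 and 0.89, while those within groups run between −0.35 and 0.74.

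Markers of other cell types differed gene by gene in newborn ductus. The summed signal of 5 of 9 endothelial markers (NOS3, SELP, KDR, TEK, TIE1), in multiples of the 75th percentile, was 2.22 to 3.09 in newborn ductus, 0.619 to 1.22 in newborn aorta and 0.846 to 1.54 in near-term ductus. NOS3 and SELP passed limma's test against newborn aorta, and SELP alone of the 5 against near-term ductus, where KDR differed by −0.63 and TIE1 by 0.04. For 4 of 7 macrophage markers (CD14, CD86, ITGAM, TLR4) it was 1.36 to 1.76, 0.924 to 1.58 and 0.513 to 0.808 in these groups. Against newborn aorta CD86 passed and TLR4 differed by −0.55, and against near-term ductus CD14 passed. For 3 of 6 fibroblast markers (DCN, COL1A1, C3) it was 46.3 to 74.1, 13.1 to 31.6 and 52.2 to 79.4, and for 3 of 9 lymphocyte markers 0.314 to 0.749, 0.144 to 0.541 and 0.24 to 0.522. Of these DCN, C3 and CXCR4 passed limma's test as higher than in newborn aorta and C3 as higher than in near-term ductus, while COL1A1 (−0.46), CD3E (−0.92) and CD4 (−2.50) were lower than in newborn aorta without passing. HBB, a red cell marker, lay at 2.88 to 16.9, 0.725 to 7.21 and 4.77 to 15, and 2 of 5 nerve markers (NPY, GAL) summed to 0.11 to 0.252, 0.0138 to 0.22 and 0.068 to 0.397, and GAL passed against newborn aorta. The sums of the fibroblast, lymphocyte, red cell and nerve markers overlapped between newborn and near-term ductus. Of 5 neutrophil and 5 cardiac muscle markers 0 were tested. The part of other cell types in the RCAN1, CREM and target-gene differences was not tested.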

How the data were processed

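Each of the 24 Cy3-labelled total RNA samples has an Agilent array of its own, per the labels. The deposited values are the intensity of each spot, linear and after background subtraction, from Agilent Feature Extraction 9.5.3.1, run with the protocol GE1-v5_95_Feb07, per the file headers. After leaving out control spots and those the software had marked (non-uniform or outlier, 2 to 124 per array), log2 of the processed signal was set relative to each array's 75th percentile (321 to 1141), and the spots of a probe were averaged. The 13997 probes well above background on at least 4 of 24 arrays were tested.

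A single linear model with 6 group means was fitted to the 24 arrays in limma 3.58.1 (lmFit, then eBayes, under R 4.3.3, two-sided tests), with Benjamini-Hochberg adjusted p-values within each of 9 comparisons and calls at 0.05. SE after ± comes from this fit and SD from the arrays of a group. Their number limits the precision. RCAN1, CREM and the gene lists were chosen with earlier results of these data known. Where a gene had several probes, the brightest on average was used. Symbols came from the array's names and RefSeq (assembly ARS-UI_Ramb_v3.0), and 1351 probes received 1 of 757 symbols, 203 of them through a table made by hand. The named genes were the CREM and RCAN1 probes, the 5 genes most like each probe well above background on at least 12 arrays, every called pathway gene, and otherwise the 2 list members of smallest p. Whether the replicate numbers pair ductus and aorta arrays of the same animal is unknown. Of 12 same-numbered pairs, 6 had deviations correlated above 0.1 (range −0.59 to 0.82), which does not settle it. Among 276 pairs of arrays 0 were identical, which does not show whether they came from separate animals. The p-values set group differences against the scatter of arrays within groups, each of which lay on 1 slide. On simulated data of 13997 probes with independent noise, 100 probes each were changed by 1 and by 2 (log2) in newborn ductus. The fit recovered 34% and 63% of these for newborn ductus against newborn aorta. For the difference in the change around birth it recovered 14% and 46%. In the data 10.3% of probes passed in newborn ductus against newborn aorta, a larger share than was changed there, so these values do not measure power here. Alternatives were normexp (offset 50), quantile, median, detected-probe percentile and cyclic loess scaling, the spike-in limit as covariate or filter, a replicate block, other probe filters, only the groups compared, the mean of a gene's probes, and each array left out.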

Additional observations from a re-analysis of the deposited data

Results flagged for a closer look

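Among 82 groups of 4 arrays examined (the 5 probes and the called pathway genes), 2 held an array far from the other 3, and chance gives about 1 in 20. The CREM probe A_70_P024296 read −2.83 on newborn aorta replicate 4, against −7.73 to −7.27 on the other 3, and that array had a spike-in limit above 1.5. PTGS2 read −2.25 on near-term ductus replicate 3, against −1.58 to −1.48 on the others, also an array with a limit above 1.5.

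The change around birth differed between ductus and aorta by limma's interaction test for PTGS2 (3.40 on the log2 scale), INHA (−1.62) and IL6 (a fitted 5.83 that measures no size, since 3 of the 4 groups were at or near background). IL6 also met the filter on dim probes only through newborn ductus.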

How the results depend on the processing

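Of 243 differences of RCAN1 and the CREM mRNA probes under the alternatives, 218 moved by less than 1 SD within groups (0.49, 0.28 and 0.18 for RCAN1, A_70_P012576 and A_70_P012577), and 25 moved further. The sign changed in 15 of the 243, over 10 differences, 9 of them among the 25. The 3 of these that lay more than 1 SD off 0 are marked reversed. RCAN1 stayed at 1.58 to 1.89 in newborn ductus against newborn aorta and at 1.31 to 1.77 in newborn against near-term ductus over 9 alternatives. With each array left out in turn these were 1.32 to 1.74 and 1.33 to 1.56, and 264 of 264 such values moved by less than 1 SD, 13 of them with a change of sign, all in differences of at most 0.045. The cause of the shifts below was not tested. With normexp A_70_P012576 gave 0.40 in near-term ductus against aorta, 0.40 in newborn against near-term ductus, 0.11 in newborn against near-term aorta, 0.30 for the difference in the change around birth, and 0.051 in near-term against preterm aorta (reversed), and A_70_P012577 gave 0.090 in newborn against near-term aorta. With median centring A_70_P012577 gave 1.30 in newborn ductus against aorta, −0.082 in near-term against preterm ductus, 1.08 in newborn against near-term ductus, −0.13 in near-term against preterm aorta and 0.53 in newborn against near-term aorta, and A_70_P012576 gave 1.06 in newborn against near-term ductus. On arrays with a spike-in limit under 1.5 (1 or 2 arrays in 5 groups) RCAN1 gave −0.60 in preterm and −0.12 in near-term ductus against aorta, 0.048 in near-term against preterm aorta and 0.48 for the difference before birth (reversed). There A_70_P012576 gave −0.024 in preterm and 0.39 in newborn ductus against aorta, 1.07 in newborn against near-term aorta and −0.33 for the difference around birth. A_70_P012577 gave 0.35 in near-term ductus against aorta, 0.53 in near-term against preterm aorta, −0.019 in newborn against near-term aorta (reversed), −0.31 for the difference before birth and 0.77 around birth.

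Called pathway genes in newborn against near-term ductus numbered 19 with normexp (39.1% of all tested probes passed) and 8 with cyclic loess (12.3%), against 5 (11%). In newborn against near-term aorta they numbered 2 with normexp (4.48% of all probes), 7 on arrays under the limit (10.4%), 0 with only the groups compared (0%) and 2 without near-term aorta replicate 1 (4.27%; 2 to 4 genes with each array left out), against 4 (6.37%). In newborn ductus against aorta there were 4 on arrays under the limit (6.22%) and 4 with only the groups compared (2.7%), against 7 (10.3%). On arrays under the limit 2 passed in preterm (2.88%) and 3 in near-term ductus against aorta (6.71%), and 1 passed in preterm ductus against aorta with only the groups compared (0.229%), each against 0 (0.7% and 1.15%). For the difference around birth 1 passed with quantile normalisation (0.379%), against 3 (0.407%). Probes near background, such as the other CREM probes, are limited by signal. The replicate block, whose numbers are not known to pair the arrays, gave 8, 5 and 3 calls in the 3 newborn comparisons and 2 around birth, and left RCAN1 at 1.59 in newborn ductus against aorta. Within groups r turned negative for SOD2 with RCAN1 (−0.20) and for PTGS2 (−0.18), ANXA2 (−0.22), TIMP1 (−0.35) and SARS1 (−0.068) with A_70_P012577.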
